A study of Mus musculus with 16 samples.

Results

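CD144 positive cells of mouse embryoid bodies were compared between day 6.5 and day 3.5 of differentiation, 2 arrays at each day. These 4 arrays are part of a series of 16, and they were taken by the population that their labels name. All 45037 probe sets other than the array's own controls entered the comparison. The 4 arrays of CD144 negative cells of the same days served as the background against which a change in the positive cells was read.

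The study let CCE mouse embryonic stem cells, a line without a transgene or a drug treatment in any of these groups, form embryoid bodies in medium from which leukemia inhibitory factor had been withdrawn. Cells were fixed in ethanol and acetic acid, labelled with antibody to CD144, which is VE-cadherin, and sorted. The 4 groups used here are CD144 positive day 3.5, CD144 positive day 6.5, CD144 negative day 3.5 and CD144 negative day 6.5 cells, each with RNA from 2 separately run experiments on the same line. The stem cells had been kept on irradiated embryonic fibroblasts before differentiation, and each array holds a mixture of all cells that passed the gate.

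Endothelial cells arise from mesoderm through a progenitor that also gives blood, and VE-cadherin, the adhesion protein of endothelial junctions, appears when the endothelial fate is taken. As vessels form, the cells add receptors, junction proteins, caveolae and a basement membrane, while genes of the pluripotent and epithelial state are shut off. In embryoid bodies the same days also bring primitive red cells, heart muscle, mesenchyme and yolk sac endoderm.

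The deposited MAS5 signals are linear, and a log2 fold is the difference between days of the mean log2(signal + 6.03), positive where day 6.5 was higher. Duplicates of the CD144 positive cells correlated at a Spearman coefficient of 0.895 at day 6.5 and 0.882 at day 3.5, against 0.865 to 0.882 between arrays of the different days. The duplicates of the negative populations of the series correlated at 0.945 to 0.955. The geometric mean signal of the added bacterial control transcripts was 5970 to 9079 on the 4 CD144 positive arrays and 2120 to 2399 on the 4 CD144 negative ones. The 3′ to 5′ signal ratio of actin, a sign of RNA quality, was 2.01 and 2.83 at day 3.5 and 1.87 on each of the arrays at day 6.5, and its part in any change was not tested.

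Cdh5, the gene of VE-cadherin, gave signals of 2085 and 1863 at day 3.5 and 3166 and 2219 at day 6.5 in the CD144 positive cells. In the CD144 negative cells all 4 signals lay between 20.5 and 38.3. Both days of the positive cells were therefore far above both days of the negative cells, while the change with time in the positive cells, a log2 fold of 0.43 with a standard error of 0.42, did not pass the test (adjusted p = 0.751). Kdr, which encodes VEGF-R2, stood at 4066 and 3691 at day 3.5 and at 4803 and 5115 at day 6.5, a log2 fold of 0.36 (adjusted p = 0.743). The log2 fold of Kdr in the negative cells was -1.14 (adjusted p = 0.00597). Itga2b, which encodes the early blood antigen CD41, gave 1632 and 1847 at day 3.5 and 2716 and 1729 at day 6.5, so that its groups overlapped (log2 fold 0.32, adjusted p = 0.707).

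Between the days 441 probe sets were higher at day 6.5 (0.979% of those tested) and 383 were lower (0.850%), 1.83% in all. With each gene represented by its brightest probe set, 268 of 18193 genes were higher (1.47%) and 272 were lower (1.50%). The groups of all called probe sets lay apart, a state that 25.1% of all probe sets showed upwards and 19.7% downwards, since each group has only 2 arrays. Over genes these shares were 26.6% and 23.3%. A different set, the probe sets whose 90% confidence interval lay wholly beyond a 2-fold change, held 509 higher (1.13%) and 206 lower (0.457%). That interval was not adjusted for the number of tests, and 236 and 101 of these probe sets were also called. When each array was centred on its median, 533 were called and 39.2% of them were higher, against 53.5% here. That centring moved the median log2 fold of all probe sets from 0.05 to -0.06. Leaving out 1 of the 4 arrays lowered the number called to 218 without day 6.5 replicate 1, 276 without day 6.5 replicate 2, 360 without day 3.5 replicate 1 and 181 without day 3.5 replicate 2, the remaining array of that day then being assumed to vary like the other populations. The p-values measure the spread between experiments run apart on the same cell line.

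Genes of the endothelial surface and junctions lay mostly higher at day 6.5 in the CD144 positive cells, and few of them passed the test. Of 40 measured genes 3 rose, 0 fell and 37 did not pass, while in the CD144 negative cells 10 of the 40 rose and 1 fell. Over all genes 1.47% rose and 1.50% fell in the positive cells, and 2.81% and 1.24% in the negative ones. The negative arrays carried a larger weight in the fit, 1.59 against 0.627, so smaller folds passed there. Counts of the sorts are therefore not comparable as sizes of change, here and for every list below. The median log2 fold in the positive cells was 0.83, against 0.03 over all genes and 0.40 for the list in the negative cells. In the positive cells 36 of the 40 folds were above 0, as were 52.1% of the folds of all genes. In 34 of the 40 both arrays of day 6.5 were above both arrays of day 3.5, as in 26.6% of all genes. The signals of the list summed to 67064 and 70722 on the arrays of day 3.5 and to 104078 and 109247 on those of day 6.5, and to between 6096 and 7227 on the 4 CD144 negative arrays. In such pools of sorted cells, fewer cells of a type and less RNA per cell cannot be told apart. The study named several members, such as Tie1, Ednrb, Icam2 and Cldn5, from these same arrays, so the list is not independent evidence of its direction.

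The 3 genes that rose were Pecam1, Cd34 and Procr. Pecam1, an adhesion protein of endothelial junctions, gave 729 and 531 at day 3.5 and 2413 and 1951 at day 6.5. Both later arrays were above both earlier ones, with a log2 fold of 1.79 ± 0.36 (standard error, adjusted p = 0.0137). Cd34, a sialomucin of progenitors and young endothelium, went from 1695 and 1651 to 5087 and 4685, a log2 fold of 1.54 ± 0.29 (adjusted p = 0.00938). It also rose in the negative cells, by 0.90. Procr, the endothelial protein C receptor, went from 832 and 803 to 1744 and 1948, a log2 fold of 1.17 ± 0.29 (adjusted p = 0.0471). Each of these 3 calls was lost when any of the 4 arrays was left out, with adjusted p between 0.0541 and 0.289.

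The promoter of Cd34 is shown because the gene was called and its promoter holds CAGGAAG, a motif of the ETS factors, which are main regulators of endothelial genes. The 300 bases around the start of the gene are from RefSeq, build GRCm38.p6, at chr1:194938571-194938870, plus strand, with the motif, which lies on the other strand, in capitals.
Cd34: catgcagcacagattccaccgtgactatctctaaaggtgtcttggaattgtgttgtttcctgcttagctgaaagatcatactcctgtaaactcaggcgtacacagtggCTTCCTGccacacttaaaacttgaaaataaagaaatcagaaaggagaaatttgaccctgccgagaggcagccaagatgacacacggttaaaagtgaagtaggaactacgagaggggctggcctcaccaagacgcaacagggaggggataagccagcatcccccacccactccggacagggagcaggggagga
Of the 40 genes of the list 23 had such a window, and 6 of these 23 (26.1%) held CAGGAAG on either strand, namely Emcn, Cd34, Robo4, Egfl7, Calcrl and Adgrf5. It was present in 14.8% of the promoters of all 27025 genes tabulated. The share was as high in the epithelial list, with 4 of 15 windows (26.7%). It was 5.56% in the cardiac, 8.33% in the mesenchyme, 10.5% in the pluripotency and 16.7% in the erythroid list. Another order of the motif, CCGGAAG, was in 0 of the 23 windows and in 9.93% of all. The motifs were chosen after the expression values had been seen.

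Many other genes of the endothelial list lay apart between the days without passing the test. Cd93, a surface lectin-like protein of endothelium, gave 1835 and 1869 at day 3.5 and 4891 and 5721 at day 6.5, a log2 fold of 1.51 with an adjusted p of 0.391. Ednrb, an endothelin receptor, gave 289 and 250 at day 3.5 and 1519 and 1577 at day 6.5, a log2 fold of 2.50 (adjusted p = 0.126). Its rise in the negative cells, by 3.33, was called (adjusted p = 0.00067). These values are from the brightest probe set of Ednrb. Its 3 probe sets ranged from 1.40 to 3.59 in the positive cells, with 1 called higher. Tie1, an orphan receptor tyrosine kinase that acts with Tek, gave 1327 and 1384 and then 3677 and 2914, a log2 fold of 1.27 (adjusted p = 0.163). In each of these both later arrays were above both earlier ones. Icam2, an endothelial adhesion molecule, gave 2695 and 2842 at day 3.5 and 5205 and 5946 at day 6.5 (log2 fold 1.01, adjusted p = 0.664). Cldn5, a tight junction claudin, gave 1086 and 1034 and then 2389 and 2244 (log2 fold 1.12, adjusted p = 0.141). Emcn, a sialomucin, gave 986 and 528 and then 2033 and 2282 (log2 fold 1.57, adjusted p = 0.379).

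Duplicates of these genes lay closer together in the compared populations than elsewhere. Within the compared populations the duplicates of the 40 genes had a median standard deviation of 0.14 on the log2 scale, and within the other 6 populations of the fit 0.43, against 0.28 and 0.31 over all genes. When only the 4 compared arrays were fitted, 18 of the 40 were called higher and 0 lower, while 3.24% of all genes were called higher in that fit. The 18 were Pecam1, Cd34, Procr, Tie1, Emcn, Esam, Icam2, Cldn5, Clec14a, Plvap, Calcrl, Adgrf5, Adgrl4, Myct1, Cd93, Ednrb, Efna1 and Mcam. No member of the list had a change that differed between CD144 positive and negative cells by the test.

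Smaller folds were measured for several well known endothelial genes. Tek, the angiopoietin receptor, gave 2207 and 1964 at day 3.5 and 2756 and 2460 at day 6.5 (log2 fold 0.32, adjusted p = 0.792). Nos3, the endothelial nitric oxide synthase, gave 1730 and 1910 and then 1790 and 1444 (log2 fold -0.18, adjusted p = 0.907). Ramp2, a partner of the adrenomedullin receptor, gave 14117 and 17206 and then 12676 and 14680 (log2 fold -0.19, adjusted p = 0.889). The groups of Nos3 and of Ramp2 overlapped. Ptprb, a phosphatase that acts on VE-cadherin and Tek, was the member with both later arrays below both earlier ones, at 941 and 850 and then 649 and 632 (log2 fold -0.48, adjusted p = 0.687).

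**Figure D1:**
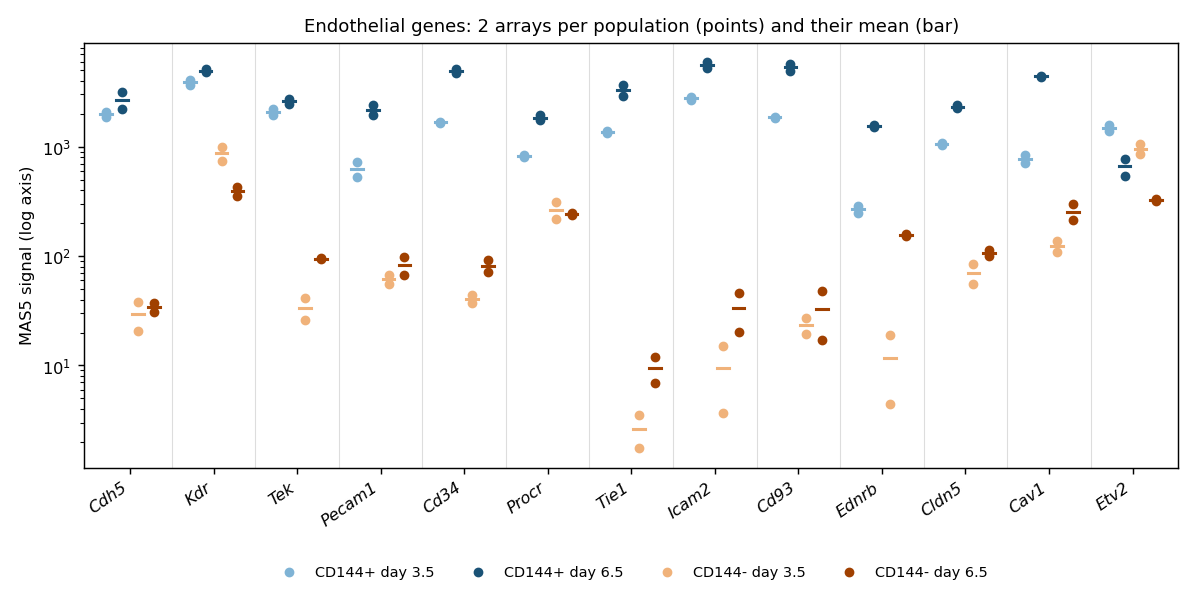
MAS5 signal on a log axis for 13 endothelial genes in CD144+ cells (blue) and CD144- cells (orange) at day 3.5 and day 6.5, with a point for each of the 2 arrays and a bar at their mean. Pecam1, Cd34, Procr and Cav1 were called higher and Etv2 lower in the CD144+ cells, while Cdh5, Kdr and Tek did not pass, and the spread of the CD144- arrays widens where the signal is near the floor, as for Tie1 and Icam2.

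Of 30 measured endothelial transcription factors 8 rose and 2 fell in the negative cells, with a median log2 fold of 0.42. In the positive cells 0 rose, 1 fell and 29 did not pass, with a median log2 fold of 0.32. The days lay apart there upwards for 15 and downwards for 5, against 26.6% and 23.3% of all genes. The factor that fell was Etv2, the ETS factor at the head of blood and endothelial specification. Its signals were 1382 and 1587 at day 3.5 and 543 and 777 at day 6.5, and its log2 fold was -1.18 ± 0.22 (adjusted p = 0.00833). In the negative cells Etv2 fell by 1.52, and the difference between the sorts did not pass (adjusted p = 0.675). Without day 6.5 replicate 1 or day 3.5 replicate 2 its adjusted p was 0.17 and 0.131.

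Among the factors that did not pass, Sox17, a regulator of arterial and endoderm cells, gave 1275 and 1138 at day 3.5 and 2307 and 2110 at day 6.5 (log2 fold 0.87, adjusted p = 0.193). Mef2c, a MADS box factor of heart and vessel, gave 391 and 423 and then 815 and 807 (log2 fold 0.99, adjusted p = 0.449). Klf2, which responds to blood flow, gave 1305 and 1277 and then 2132 and 1548 (log2 fold 0.49, adjusted p = 0.267). These 3 lay higher on both later arrays, and Sox17 and Mef2c were called in the fit of the 4 compared arrays alone. Tal1, a factor shared by blood and endothelium, gave 2882 and 3350 and then 2171 and 2402 (log2 fold -0.44, adjusted p = 0.484), while it rose by 1.29 in the negative cells, and that difference passed the test. Erg, Fli1, Gata2, Lmo2 and Foxp1 had log2 folds from -0.46 to 0.41, none of them called. The fold of Foxp1 depended on the probe set, at -0.24 for the brightest and 0.67 for the one with the largest variance.

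Of 31 genes of VEGF, angiopoietin and Notch signalling 2 rose and 0 fell, and both that rose were Notch ligands. Dll1 gave 166 and 232 at day 3.5 and 477 and 615 at day 6.5, a log2 fold of 1.44 ± 0.30 (adjusted p = 0.0201). Jag1 gave 399 and 502 and then 1025 and 1056, a log2 fold of 1.21 ± 0.19 (adjusted p = 0.00265). Neither ligand rose in the negative cells, where Dll1 fell by 1.19 and Jag1 had a log2 fold of -0.27, and the difference between the sorts passed for both, at 2.62 and 1.47 on the log2 scale. The receptors Notch1, Notch2, Notch3 and Notch4 had log2 folds between -0.37 and -0.16 on their brightest probe sets and none passed. The targets Hey1 and Nrarp, at 0.34 and 0.16, did not pass. The Dll1 call was lost without any of the 4 arrays (adjusted p from 0.0745 to 0.206), and that of Jag1 without day 3.5 replicate 1 (adjusted p = 0.0513).

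Of 15 arterial genes 1 rose, which was again Jag1, and of 10 venous and lymphatic genes 0 rose and 0 fell. Acvrl1, a BMP receptor of arteries, gave 368 and 267 at day 3.5 and 1244 and 1361 at day 6.5 (log2 fold 2.03, adjusted p = 0.105). Efnb2, the arterial ephrin, gave 1368 and 893 and then 2390 and 1694 (log2 fold 0.86, adjusted p = 0.218). Aplnr, the apelin receptor of mesoderm and veins, stood at 14417 and 17132 and then 7628 and 8989 (log2 fold -0.92, adjusted p = 0.223). All 3 lay apart between the days, and Acvrl1 and Aplnr were called when the 4 compared arrays were fitted alone. On their brightest probe sets the ligands and receptors of VEGF stayed uncalled, with Vegfa at a log2 fold of 0.66 and Flt1 at 0.44. Under alternatives, which include another choice of probe set, their log2 folds reached 1.46 and 1.69. Vegfa was called under 1 alternative.

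In BMP and TGF-beta signalling 3 of 23 genes rose and 0 fell. Id2, an inhibitor of helix-loop-helix factors and a BMP target, went from 580 and 760 to 3751 and 3052, a log2 fold of 2.34 ± 0.31 (adjusted p = 0.000528). Tgfb1, a ligand, went from 2306 and 1956 to 4752 and 4192, a log2 fold of 1.07 ± 0.16 (adjusted p = 0.00182). Tgfb2, another ligand, went from 236 and 165 to 825 and 789, a log2 fold of 2.00 ± 0.47 (adjusted p = 0.0387). The 3 genes behaved unlike each other outside the CD144 positive cells, where Id2 rose by 1.20 and Tgfb2 by 2.35 while Tgfb1 fell by 0.39, and among these the difference between the sorts was called for Tgfb1, at 1.46. Bmp4 gave 1295 and 1339 and then 2462 and 2098 and did not pass (log2 fold 0.78, adjusted p = 0.0662). The call of Id2 remained without any of the 4 arrays, that of Tgfb1 was lost without day 3.5 replicate 2 (adjusted p = 0.0539), and that of Tgfb2 without any of them (adjusted p from 0.109 to 0.319).

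The list for caveolae, the flask-shaped pits of endothelial membranes, also held annexins. Of its 10 genes 3 rose, which were Cav1 and the annexins Anxa1 and Anxa2. The median log2 fold was 0.91, against 0.86 in the negative cells, where 3 rose as well. Cav1, the coat protein of caveolae, gave 713 and 834 at day 3.5 and 4362 and 4465 at day 6.5, a log2 fold of 2.51 ± 0.39 (adjusted p = 0.0022). Anxa2, a membrane annexin, went from 3456 and 3285 to 9113 and 10132, a log2 fold of 1.51 ± 0.19 (adjusted p = 0.000328), and here the difference from the negative cells, 1.15, passed as well. The 3 probe sets of Anxa2 ranged from -0.63 to 1.51, with 1 called. Anxa1 went from 453 and 172 to 1128 and 1308, a log2 fold of 2.09 ± 0.40 (adjusted p = 0.0095), and it also rose in the negative cells. Cav2, the partner of Cav1, gave 362 and 305 and then 708 and 715 (log2 fold 1.08, adjusted p = 0.678). Cavin1, Cavin2, Cavin3 and Ehd2 were not called either. With the compared arrays alone Cav2 and Cavin1 were called higher. The calls of Cav1 and Anxa2 remained whichever array was left out, and that of Anxa1 only without day 3.5 replicate 1, with adjusted p up to 0.191 otherwise.

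Of 23 genes of the matrix list 12 rose and 0 fell in the negative cells. In the positive cells 5 of the 23 rose and 0 fell, and fibrillar collagens rose together. Col1a1 gave 16 and 13.1 at day 3.5 and 1659 and 709 at day 6.5, a log2 fold of 5.73 ± 0.74 (adjusted p = 0.000328). Col3a1 gave 71.6 and 32.6 and then 1348 and 1128, a log2 fold of 4.50 ± 0.67 (adjusted p = 0.00149). Col1a2 gave 420 and 278 and then 2759 and 2391, a log2 fold of 2.89 ± 0.25 (adjusted p = 5e-06). These are the chains of the interstitial collagens of fibroblasts and mesenchyme, and all 3 also rose in the negative cells, by 2.30, 3.82 and 2.37. Col5a2 and Col5a1 rose too, with log2 folds of 2.27 and 1.51. The basement membrane collagens did not pass, as Col4a1 stood at 6801 and 8487 and then 10409 and 8390 (log2 fold 0.30, adjusted p = 0.751) and Col4a2 at 4249 and 3972 and then 7102 and 6467 (log2 fold 0.72, adjusted p = 0.181). In the negative cells Col4a1 rose by 1.85, and the difference between the sorts was -1.56 (adjusted p = 0.0474). The calls of the first 3 collagens remained without any array, and those of Col5a1 and Col5a2 did not (adjusted p up to 0.134 and 0.091).

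Of 11 matrix proteases and inhibitors 3 rose. Timp3, an inhibitor of matrix proteases, went from 583 and 623 to 2245 and 2316, a log2 fold of 1.91 ± 0.39 (adjusted p = 0.0151). Mmp2, a gelatinase, went from 1175 and 1132 to 3223 and 2341, a log2 fold of 1.25 ± 0.21 (adjusted p = 0.00455). Serpinh1, the collagen chaperone, had a log2 fold of 0.96 ± 0.24 (adjusted p = 0.049). All 3 lay apart between the days. Timp3 and Serpinh1 lost the call without any of the 4 arrays (adjusted p from 0.113 to 0.341), and Mmp2 without day 6.5 replicate 1 or day 3.5 replicate 2 (0.12 and 0.0728). None of 16 integrins and none of 12 scavenger and lipid uptake genes passed, and the median log2 fold of the integrins was 0.46. Among these Itgb3, the beta chain of the vitronectin receptor, gave 240 and 280 and then 780 and 838 (log2 fold 1.62, adjusted p = 0.481), and Stab1, a scavenger receptor of sinusoidal endothelium, gave 551 and 631 and then 1604 and 1277 (log2 fold 1.27, adjusted p = 0.657).

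**Figure D2:**
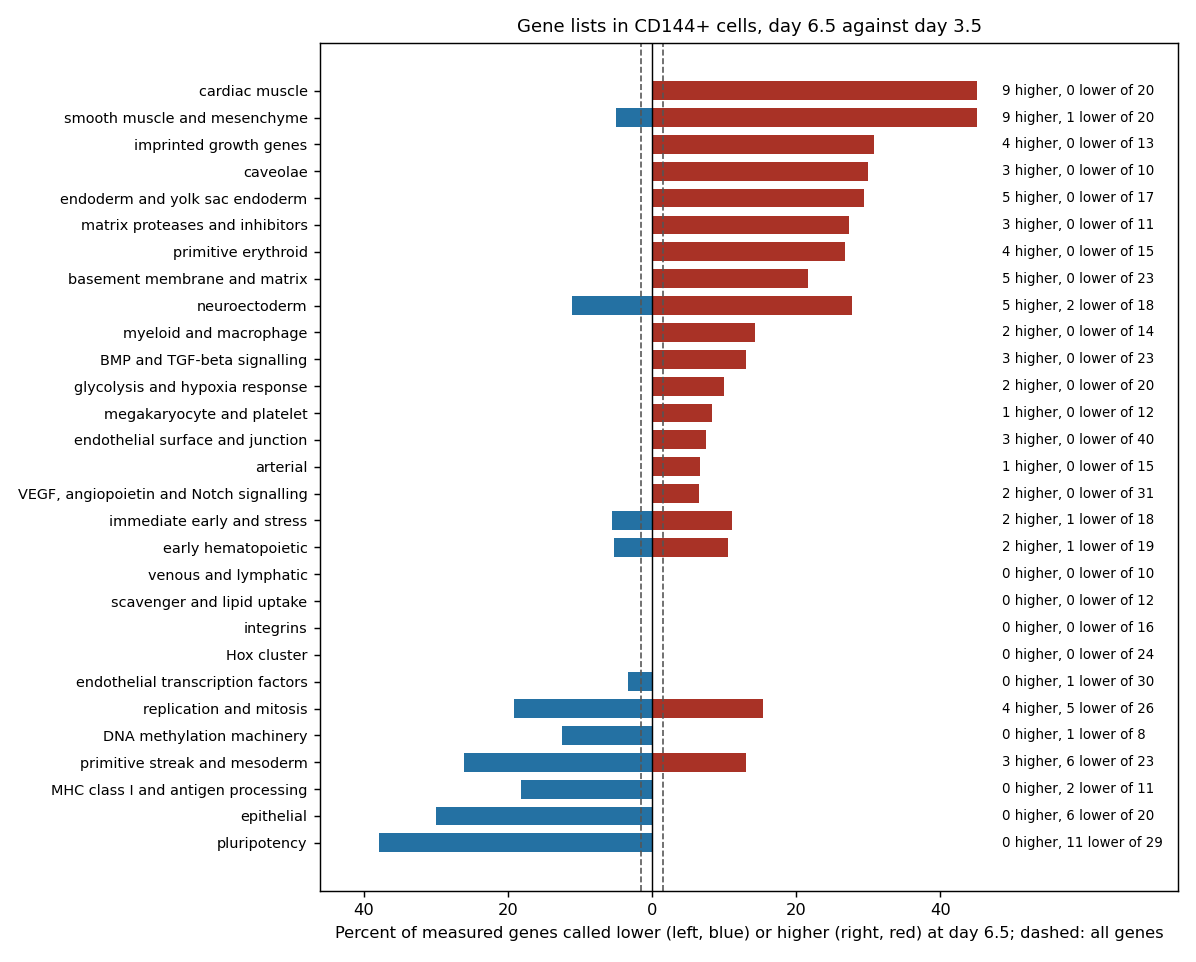
Percent of the measured genes of each list that were called higher (red, to the right) or lower (blue, to the left) in CD144+ cells at day 6.5 against day 3.5, with the share of all genes as dashed lines (1.47% higher, 1.50% lower). The cardiac and mesenchyme lists reached 45% higher, the pluripotency list 37.9% lower and the endothelial surface list 7.50% higher.

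The pluripotency genes were the list with the largest share of falls in the CD144 positive cells. Of 29 measured genes 11 fell, 0 rose and 18 did not pass, with a median log2 fold of -0.80. In 23 of them both later arrays were below both earlier ones, as in 23.3% of all genes. Their signals summed to 94952 and 101914 at day 3.5 and to 44697 and 46032 at day 6.5. In the CD144 negative cells the sum stayed between 96081 and 105392 over both days, the median log2 fold was 0.49, and 11 of the 29 rose there and 2 fell. For 13 of the 29 the change was lower in the positive cells by the test of the difference itself, a test that 0.709% of all genes passed downwards and 0.495% upwards.

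L1td1, an RNA-binding protein of embryonic stem cells, gave 4967 and 4594 at day 3.5 and 736 and 630 at day 6.5, a log2 fold of -2.80 ± 0.29 (adjusted p = 4.34e-05). Dnmt3b, the de novo DNA methyltransferase of the early embryo, gave 15534 and 17634 and then 2673 and 3505 on its brighter probe set, and fell by 2.43 ± 0.25 (adjusted p = 3.7e-05). Its other probe set fell by 3.44. Tdgf1, the Nodal co-receptor Cripto, gave 5550 and 6242 and then 1333 and 1247, and fell by 2.19 ± 0.25 (adjusted p = 0.0001). These 3 falls differed from the change in the negative cells and remained called whichever array was left out.

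Pou5f1, which encodes the stem cell factor Oct4, gave 10193 and 12561 at day 3.5 and 2191 and 2557 at day 6.5, and fell by 2.25 ± 0.48 (adjusted p = 0.0197). The fall was lost without any of the 4 arrays (adjusted p from 0.094 to 0.209), and the difference from the negative cells did not pass (adjusted p = 0.209). Foxd3, a forkhead factor of stem cells and neural crest, gave 280 and 285 and then 64.6 and 9.67, and fell by 3.12 ± 0.54 (adjusted p = 0.00532). Without day 6.5 replicate 1 its adjusted p was 0.00061, and without each of the other 3 arrays it was between 0.0522 and 0.0764, with a log2 fold of -2.03 without day 6.5 replicate 2. The other falls were those of Nodal, Lefty2, Fgf4, Utf1, Dppa4 and Dppa2, by 1.07 to 1.61 on the log2 scale, and of these Lefty2, an inhibitor of Nodal, kept its call without any array. The other 5 lost theirs without day 6.5 replicate 1 and without day 3.5 replicate 2 (adjusted p from 0.0728 to 0.405). Without day 3.5 replicate 1 all of them but Nodal lost the call (from 0.0935 to 0.147), and without day 6.5 replicate 2 Dppa4 and Utf1 did (0.0914 and 0.145). The log2 fold of Dppa2 was -0.70 without day 6.5 replicate 1, and its call was also lost with the compared arrays alone.

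Some stem cell genes behaved otherwise. Sox2, shared by stem cells and neural progenitors, gave 4491 and 4659 at day 3.5 and 4746 and 4694 at day 6.5 (log2 fold 0.05, adjusted p = 0.98), while it rose by 0.98 in the negative cells. Dppa3, a germ cell and oocyte gene, gave 1229 and 1397 and then 1220 and 1467. Nanog gave 3103 and 3279 and then 1474 and 1693 (log2 fold -1.01, adjusted p = 0.0902). The groups of Dppa3 overlapped and those of Nanog lay apart. Of 8 genes of the DNA methylation machinery 1 fell, which was Dnmt3b, and Dnmt1, the maintenance enzyme, gave 3678 and 3340 and then 3090 and 2587 (log2 fold -0.31, adjusted p = 0.485).

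Epithelial genes fell in the same cells. Of 20 measured genes 6 fell, 0 rose and 14 did not pass, with a median log2 fold of -0.92 against 0.01 in the negative cells, where 3 rose and 0 fell. The sums were 47031 and 45648 at day 3.5 and 31030 and 33164 at day 6.5 in the positive cells. Cdh1, the epithelial cadherin, gave 8774 and 10457 at day 3.5 and 2137 and 2676 at day 6.5, and fell by 2.00 ± 0.30 (adjusted p = 0.00144). In the negative cells its 4 signals lay between 7942 and 9593, a log2 fold of 0.01, and the difference between the sorts was -2.01 (adjusted p = 0.00953). Esrp1, a splicing regulator of epithelia, gave 1111 and 963 and then 233 and 251, and fell by 2.07 ± 0.26 (adjusted p = 0.000243). Rab25, an epithelial recycling GTPase, gave 803 and 726 and then 169 and 221, and fell by 1.95 ± 0.33 (adjusted p = 0.00462).

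The other epithelial falls were those of Crb3, Cldn7 and Grhl2, by 1.71, 1.20 and 1.08. Cdh1 and Esrp1 kept their calls without any array, Rab25 kept its call only without day 6.5 replicate 2 (adjusted p up to 0.0937 otherwise) and Cldn7 only without day 6.5 replicate 1 (up to 0.175), and Crb3 and Grhl2 lost theirs without any (adjusted p from 0.113 to 0.294). Epcam, an epithelial adhesion molecule, gave 8043 and 7253 and then 2712 and 2642 and did not pass (log2 fold -1.51, adjusted p = 0.0865). Keratins of simple epithelia did not pass either, as Krt8 gave 5475 and 4783 and then 7076 and 8164 (log2 fold 0.57, adjusted p = 0.241) and Krt18 gave 8737 and 8068 and then 9070 and 9680 (log2 fold 0.16, adjusted p = 0.842). In the fit of the 4 compared arrays alone 10 epithelial genes were called lower, as were 1.91% of all genes.

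Primitive streak and early mesoderm genes split. Of 23 measured genes 6 fell, 3 rose and 14 did not pass, and in the negative cells 9 fell and 0 rose. Mixl1, a homeobox gene of the streak, gave 448 and 456 at day 3.5 and 23.3 and 17.8 at day 6.5, and fell by 4.11 ± 0.23 (adjusted p = 3.47e-08). Eomes, a T-box factor of the streak, gave 939 and 905 and then 205 and 123, and fell by 2.49 ± 0.29 (adjusted p = 0.000137). Fgf5, a growth factor of the epiblast, gave 1018 and 1327 and then 16.4 and 97.5, and fell by 4.60 ± 0.48 (adjusted p = 4.37e-05). Mixl1 and Eomes also fell in the negative cells, by 2.40 and 1.16, whereas Fgf5 gave between 1663 and 2285 there, and the difference passed for Mixl1 and Fgf5. These 3 calls remained without any array.

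The remaining falls were those of Lhx1, by 2.05 on its brightest probe set, Mesp1, by 1.53, and Fgf8, by 1.38. Fgf8 kept its call without any array, while Lhx1 kept it only without day 6.5 replicate 1 and Mesp1 only without day 6.5 replicate 2 (adjusted p up to 0.22 and 0.26 otherwise). The log2 fold of Lhx1 on that probe set was -3.18 without day 6.5 replicate 1 and -0.92 without day 6.5 replicate 2, and with the compared arrays alone the calls of Lhx1 and Mesp1 were lost (adjusted p of 0.084 and 0.0526). Another probe set of Lhx1 fell by 3.69 and kept its call whichever array was left out. The genes that rose were Hand1, Pdgfra and Msx2. Hand1 gave 200 and 158 at day 3.5 and 638 and 581 at day 6.5, a log2 fold of 1.74 ± 0.35 (adjusted p = 0.0152). Pdgfra and Msx2 had log2 folds of 1.56 and 1.28, and the change of Pdgfra was larger than in the negative cells by 1.72. Hand1 and Msx2 lost the call without any of the 4 arrays (adjusted p from 0.0625 to 0.271), and Pdgfra kept it only without day 6.5 replicate 2 (up to 0.131 otherwise).

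**Figure D3:**
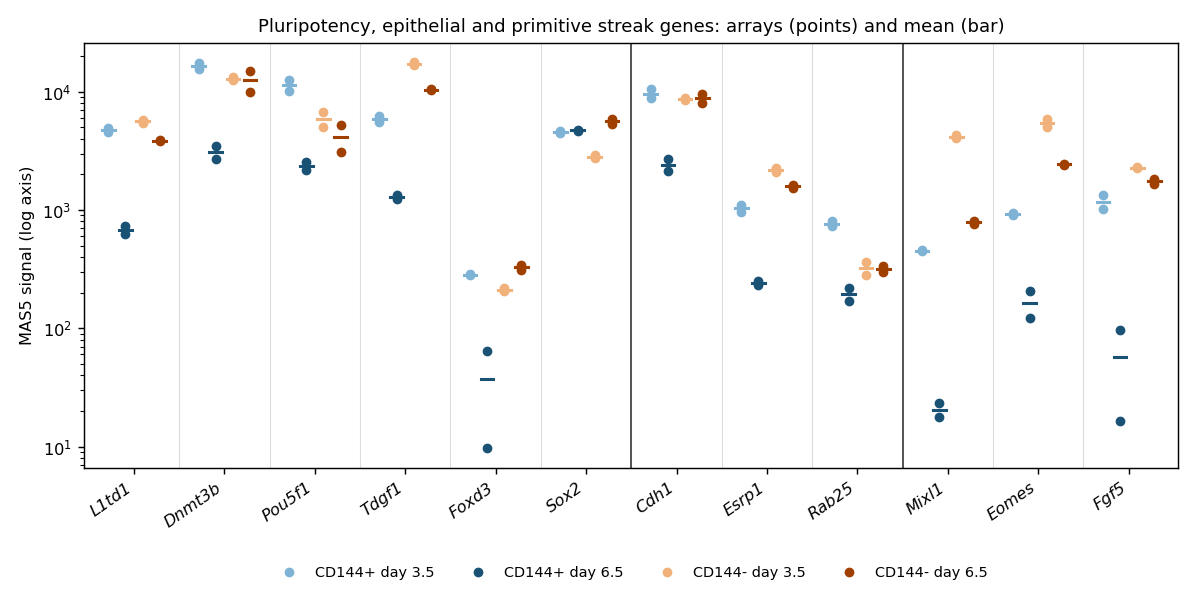
MAS5 signal on a log axis for 6 pluripotency, 3 epithelial and 3 primitive streak or epiblast genes, separated by dark lines, with a point for each of the 2 arrays of a population and a bar at their mean. All but Sox2 were called lower in CD144+ cells at day 6.5 (dark blue) than at day 3.5 (light blue), while Cdh1 stayed between 7942 and 9593 in CD144- cells (orange).

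Embryonic globins rose in the CD144 positive cells and in the negative cells. Of 15 primitive erythroid genes 4 rose and 0 fell in the positive cells, and 10 rose in the negative ones. Hba-x, the embryonic zeta globin, gave 236 and 214 at day 3.5 and 11166 and 13726 at day 6.5, a log2 fold of 5.75 ± 0.39 (adjusted p = 3.17e-07), against 6.49 in the negative cells. Hbb-bh1, an embryonic beta-like globin, gave 2308 and 1946 and then 23506 and 29619, a log2 fold of 3.63 ± 0.29 (adjusted p = 2.1e-06). Hbb-y, the epsilon globin, gave 96.3 and 95.0 and then 2670 and 3321, a log2 fold of 4.88 ± 0.56 (adjusted p = 0.000114). For Hbb-bh1 the change in the positive cells minus that in the negative cells was -1.62 (adjusted p = 0.0331). For Hbb-y a second probe set passed that test, with a difference of -3.36 (adjusted p = 0.0389), and its brightest did not (adjusted p = 0.0575).

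The promoters of Hba-x and Hbb-y are shown because these genes moved together and because each holds TGATAA, a form of the site of the erythroid GATA factors. Both are from RefSeq, build GRCm38.p6, Hba-x at chr11:32276350-32276649, plus strand and Hbb-y at chr7:103853158-103853457, minus strand, with the motif on either strand in capitals.
Hba-x: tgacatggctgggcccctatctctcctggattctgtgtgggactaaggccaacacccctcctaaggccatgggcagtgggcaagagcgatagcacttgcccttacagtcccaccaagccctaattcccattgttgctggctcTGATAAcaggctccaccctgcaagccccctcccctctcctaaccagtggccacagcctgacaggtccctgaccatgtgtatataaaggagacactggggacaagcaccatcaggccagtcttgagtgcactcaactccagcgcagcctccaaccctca
Hbb-y: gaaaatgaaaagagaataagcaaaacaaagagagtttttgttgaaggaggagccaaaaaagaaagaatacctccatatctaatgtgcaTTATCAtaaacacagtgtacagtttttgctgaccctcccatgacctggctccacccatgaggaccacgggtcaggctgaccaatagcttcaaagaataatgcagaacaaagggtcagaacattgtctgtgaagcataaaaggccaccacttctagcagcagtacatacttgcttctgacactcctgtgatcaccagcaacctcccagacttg
Of 12 erythroid genes with a window 7 held TGATAA (58.3%), against 10.4% of all genes of the table, and 4 held the other order AGATAA (33.3%), against 12.7%.

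Beside the globins few erythroid genes moved in the positive cells. Ermap, an erythroid membrane protein, gave 2.93 and 6.70 at day 3.5 and 94.4 and 84.8 at day 6.5, a log2 fold of 3.16 ± 0.78 (adjusted p = 0.0485) that was lost without any array (adjusted p from 0.18 to 0.275), and under 12 of 15 alternatives in all, among them the replicate block (0.0502), with which 3 erythroid genes were called. Gata1, the erythroid factor, gave 277 and 270 and then 449 and 437 (log2 fold 0.69, adjusted p = 0.504). Hemgn, a nuclear protein of red cell precursors, gave 31.4 and 45.6 and then 6.41 and 10.2 (log2 fold -1.63, adjusted p = 0.393), while it rose by 3.08 in the negative cells, and the difference passed. The erythroid sums were 8999 and 9662 at day 3.5 and 44366 and 53330 at day 6.5 in the positive cells, and 51624 and 55899 at day 6.5 in the negative cells. They rest mainly on the globins, and the part of red cells among the sorted cells in the endothelial values was not tested.

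Of 19 early hematopoietic genes 2 rose and 1 fell. Laptm5, a lysosomal protein of blood cells, gave 565 and 919 at day 3.5 and 2502 and 3372 at day 6.5, a log2 fold of 2.00 ± 0.37 (adjusted p = 0.00883). Cd44, the hyaluronan receptor, gave 591 and 489 and then 2459 and 2036, a log2 fold of 2.05 ± 0.28 (adjusted p = 0.000728). Both folds depended on the probe set. The 5 probe sets of Laptm5 ranged from -1.09 to 2.00 and the 4 of Cd44 from -1.41 to 2.14. For each gene 2 were called higher and 0 lower. Myb, a factor of blood progenitors, gave 1557 and 1317 and then 463 and 430, and fell by 1.67 ± 0.20 (adjusted p = 0.000149). In the negative cells Myb had a log2 fold of 0.37, and the difference, -2.04, passed. The calls of Cd44 and Myb remained without any array, and Laptm5 kept its call only without day 3.5 replicate 2 (adjusted p up to 0.136 otherwise). Runx1, which drives the step from endothelium to blood, stayed low at 45.5 and 70.8 and then 111 and 97.7 (log2 fold 0.81, adjusted p = 0.647).

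Of 14 myeloid and macrophage genes 2 rose in the CD144 positive cells and 0 fell, with a sum of 2456 and 2657 at day 3.5 and 7111 and 8255 at day 6.5, against 1438 to 1632 in the negative cells on all 4 arrays. Fcer1g, the shared gamma chain of Fc receptors, gave 11.0 and 4.25 and then 722 and 943, a log2 fold of 5.97 ± 0.97 (adjusted p = 0.00307). Cd52, a small surface glycoprotein of leukocytes, gave 138 and 158 and then 622 and 921, a log2 fold of 2.31 ± 0.56 (adjusted p = 0.0429). Over the list 13 of the 14 folds were above 0, with a median log2 fold of 0.91, 8 lay apart upwards, against 26.6% of all genes, and 6 were called higher with the 4 compared arrays alone, against 3.24% of all genes in that fit. Lyz2, a lysozyme of myeloid cells, gave 132 and 75.5 and then 331 and 468 (log2 fold 1.92, adjusted p = 0.323). Mrc1, a mannose receptor of macrophages and some endothelia that stands on the scavenger list, gave 306 and 421 and then 866 and 845 (log2 fold 1.24, adjusted p = 0.247). Adgre1, Itgam and Cd14, surface markers of macrophages and monocytes, did not pass and their groups overlapped, with Adgre1 at 61.7 and 177 and then 92.0 and 178, Itgam at 3.19 and 83.2 and then 28.9 and 78.5, and Cd14 at no more than 18.7 on the 4 arrays. Tyrobp, the adaptor that pairs with such receptors, gave 418 and 276 and then 1577 and 1971 (log2 fold 2.35, adjusted p = 0.0784).

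Of the chemokine genes that the naming rules picked, Ccl3 and Ccl9 were among the 10 largest rises in the filtered ranking given below. No list of chemokines was tested. Ccl3 gave 13.2 and 2.95 at day 3.5 and 1164 and 1705 at day 6.5, a log2 fold of 6.75 ± 0.82 (adjusted p = 0.000209). Ccl9 gave 3.28 and 41.3 and then 1122 and 1277, a log2 fold of 5.84 ± 0.89 (adjusted p = 0.00185). Ccl6 gave 53.8 and 27.4 and then 438 and 814, a log2 fold of 3.76 ± 0.76 (adjusted p = 0.0144). All 3 stayed at or below 30.9 on every CD144 negative array, and their differences between the sorts, 6.08, 4.88 and 4.07, passed the test, as did that of Fcer1g at 7.35. Ccl3 and Ccl9 kept their calls without any array, Fcer1g lost its call without either replicate 2 (adjusted p of 0.0576 and 0.0608), and Ccl6 kept it only without day 3.5 replicate 1 (up to 0.17 otherwise). Cd52 lost its call without any array (from 0.186 to 0.318). The early signals of these genes lay near the floor of the array, so the size of the fold depends on the offset, and with an offset of 32 that of Ccl3 was 5.18.

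Of 12 megakaryocyte and platelet genes 1 rose. Pf4, a platelet chemokine, gave 169 and 134 at day 3.5 and 989 and 1003 at day 6.5, a log2 fold of 2.67 ± 0.62 (adjusted p = 0.0331), lost without any of the 4 arrays (adjusted p from 0.126 to 0.26). Plek, a platelet signalling protein, gave 533 and 826 and then 3847 and 3977 (log2 fold 2.55, adjusted p = 0.0688). The sum of the list was 3054 and 3684 at day 3.5 and 9422 and 8626 at day 6.5, against 574 to 1032 in the negative cells.

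Heart muscle genes rose in 9 of 20 cases, against 1.47% of all genes, and 0 fell. Hand2, a factor of heart and limb, gave 59.1 and 111 at day 3.5 and 1076 and 1100 at day 6.5, a log2 fold of 3.65 ± 0.47 (adjusted p = 0.000328). Tnni1, the slow troponin I of the embryonic heart, gave 55.2 and 12.7 and then 1249 and 1478, a log2 fold of 5.33 ± 0.80 (adjusted p = 0.00163). Myh7, a ventricular myosin heavy chain, gave 82.1 and 108 and then 733 and 838, a log2 fold of 2.98 ± 0.60 (adjusted p = 0.0144). All 3 also rose in the negative cells, by 2.03, 3.64 and 3.32. Isl1 and Myl4 rose with log2 folds of 2.37 and 1.88, and Tbx20 and Tnnc1 with 1.82 and 1.39, besides Myl7 and Actc1. The 3 probe sets of Hand2 ranged from 0.08 to 3.65 and the 2 of Myl4 from 0.04 to 1.88, with 1 called for each. The cardiac sum was 5194 and 5209 at day 3.5 and 14943 and 17246 at day 6.5 in the positive cells, and 3995 to 9561 in the negative cells. Nkx2-5, the core cardiac factor, gave 66.1 and 124 and then 112 and 198, with overlapping groups. Hand2 kept its call without any array, Tnni1 lost it without day 3.5 replicate 2 (adjusted p = 0.0535), and Myh7, Isl1, Myl4, Tbx20 and Tnnc1 lost it without any (adjusted p from 0.056 to 0.365).

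Myl7 and Actc1, chosen for display after their values had been seen, encode the atrial myosin light chain and cardiac actin. Myl7 gave 903 and 834 at day 3.5 and 2729 and 3570 at day 6.5, a log2 fold of 1.84 (adjusted p = 0.000328), and its change was larger than in the negative cells by the test. Actc1 gave 1280 and 1277 and then 3092 and 2931, a log2 fold of 1.23 (adjusted p = 0.00679), and it rose in both sorts. Myl7 kept its call without any array and Actc1 lost it without any (adjusted p from 0.0611 to 0.106). Their promoters each hold a CArG box, the site of serum response factor, shown in capitals on either strand. They are from RefSeq, build GRCm38.p6, Myl7 at chr11:5898733-5899032, minus strand and Actc1 at chr2:114052826-114053125, minus strand.
Myl7: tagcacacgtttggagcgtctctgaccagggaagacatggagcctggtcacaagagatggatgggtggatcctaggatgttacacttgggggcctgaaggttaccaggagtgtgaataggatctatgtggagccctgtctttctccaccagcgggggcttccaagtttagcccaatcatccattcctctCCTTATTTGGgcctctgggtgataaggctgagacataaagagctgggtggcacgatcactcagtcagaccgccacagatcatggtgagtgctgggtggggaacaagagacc
Actc1: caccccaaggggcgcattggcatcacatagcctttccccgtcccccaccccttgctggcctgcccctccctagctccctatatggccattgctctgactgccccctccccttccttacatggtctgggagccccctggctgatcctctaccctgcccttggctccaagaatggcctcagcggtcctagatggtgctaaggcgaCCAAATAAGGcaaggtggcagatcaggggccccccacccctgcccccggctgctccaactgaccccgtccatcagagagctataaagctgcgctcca
Of 18 cardiac genes with a window 3 held a CArG box (16.7%), the other being Myl3, which was not called, and 1.81% of all genes of the table held one.

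Smooth muscle and mesenchyme genes rose in 9 of 20 cases and fell in 1, against 1.47% and 1.50% of all genes. Acta2, the smooth muscle actin, gave 1433 and 1198 at day 3.5 and 11422 and 13048 at day 6.5, a log2 fold of 3.21 ± 0.23 (adjusted p = 7.05e-07). Its 3 probe sets ranged from 0.39 to 3.21, with 1 called. Postn, a matrix protein of valves and fibroblasts, gave 5.52 and 19.1 and then 1470 and 1745, a log2 fold of 6.56 ± 0.60 (adjusted p = 9.48e-06). Both rose in the negative cells too, by 2.50 and 4.26, and both calls remained without any array. Cdh11, a mesenchymal cadherin, and Rgs5, a pericyte gene, rose with log2 folds of 2.09 and 1.97 and kept their calls likewise, and their changes exceeded those of the negative cells by 2.81 and 2.05. Pdgfrb, the pericyte receptor, and Vim, an intermediate filament, rose with log2 folds of 1.60 and 0.94. Pdgfrb lost its call without day 6.5 replicate 2 and day 3.5 replicate 1 (adjusted p of 0.142 and 0.0987) and Vim without all but day 3.5 replicate 1 (up to 0.146), and Vim also with the compared arrays alone (0.0642). Thy1, an antigen of fibroblasts and neurons, was the member that fell, from 593 and 653 to 148 and 79.3, by 2.46 ± 0.43 (adjusted p = 0.00529), and without day 6.5 replicate 2 or day 3.5 replicate 2 its adjusted p was 0.0982 and 0.0912. Genes of differentiated smooth muscle did not pass, as Myh11 gave at most 49.1 on the 4 arrays and Cnn1 gave 459 and 454 and then 259 and 391 (log2 fold -0.51, adjusted p = 0.754). The sum of the list was 31751 and 28082 at day 3.5 and 68621 and 68476 at day 6.5, against 14983 to 23577 in the negative cells, so it was higher in the CD144 positive cells on both days. Col1a1 and Col3a1 belong to this list as well as to the matrix list, and Pdgfra to this list as well as to that of early mesoderm.

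Of 17 genes of endoderm and yolk sac endoderm 5 rose, 0 fell and 12 did not pass, where 1.47% of all genes rose. Ttr, a carrier of thyroid hormone, gave 94.3 and 67.7 at day 3.5 and 6919 and 8700 at day 6.5, a log2 fold of 6.50 ± 0.65 (adjusted p = 3.1e-05). Rbp4, the carrier of retinol, gave 367 and 332 and then 3718 and 4788, a log2 fold of 3.57 ± 0.30 (adjusted p = 4.45e-06). Afp, the fetal serum protein, gave 1.02 and 18.4 and then 322 and 400, a log2 fold of 4.80 ± 1.03 (adjusted p = 0.0224). The 5 probe sets of Afp ranged from -0.36 to 4.80, with 1 called. Ttr and Afp rose in the negative cells by 5.89 and 4.91, and the change of Rbp4 was larger in the positive cells by 2.49 (adjusted p = 0.00289). Apom and Dab2 rose too, with log2 folds of 4.29 and 1.44. Ttr and Rbp4 kept their calls without any array, and the other 3 lost theirs without any (adjusted p from 0.0528 to 0.305). The endoderm sum was 3851 and 3748 at day 3.5 and 17971 and 20530 at day 6.5 in the positive cells and 10752 and 11577 at day 6.5 in the negative cells. Its rise rests mainly on Ttr and Rbp4. Alb and Hnf4a gave at most 54.1 and 106 on the 4 positive arrays and did not pass, with log2 folds of 0.97 and -0.40. Amn, Cubn and Apoa2 were not called either, also with the compared arrays alone. Over the list 14 of the 17 folds were above 0, as were 52.1% of the folds of all genes. With the compared arrays alone 8 genes of the list were called higher, against 3.24% of all genes in that fit.

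Of 18 neuroectoderm genes 5 rose and 2 fell, against 1.47% and 1.50% of all genes. Zic1, a zinc finger factor of the neural plate and its borders, gave 23.9 and 25.2 at day 3.5 and 565 and 624 at day 6.5, a log2 fold of 4.29 ± 0.75 (adjusted p = 0.00573). Pax6, an eye and brain factor, gave 81.6 and 135 and then 853 and 731, a log2 fold of 2.84 ± 0.58 (adjusted p = 0.0154). Pax3, Six3 and Fabp7 rose with log2 folds of 3.16, 2.56 and 1.71. The 5 probe sets of Pax6 ranged from -1.17 to 2.94 and the 3 of Six3 from -1.46 to 2.56, with 1 called for each. The fallers were Pou3f1, an epiblast and neural POU factor, from 1068 and 1257 to 165 and 249 (fell by 2.48 ± 0.28, adjusted p = 8.41e-05), and Zic2, from 1353 and 1405 to 458 and 401. Pou3f1 kept its call without any array, Zic1 and Pax3 only without day 3.5 replicate 1 (adjusted p up to 0.323 otherwise), and Pax6, Six3, Fabp7 and Zic2 lost theirs without any (adjusted p from 0.0608 to 0.348), Fabp7 also with the compared arrays alone (0.0583). The neural sum went from 5137 and 5305 to 5793 and 5411, and Tubb3 and Olig2, markers of neurons and of oligodendrocyte precursors, gave at most 244 and 19.5.

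The sums of the blood, heart, mesenchyme and endoderm lists were thus larger at day 6.5 in the CD144 positive cells, as was the sum of the endothelial list, and their part in the endothelial values was not tested.

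**Figure D4:**
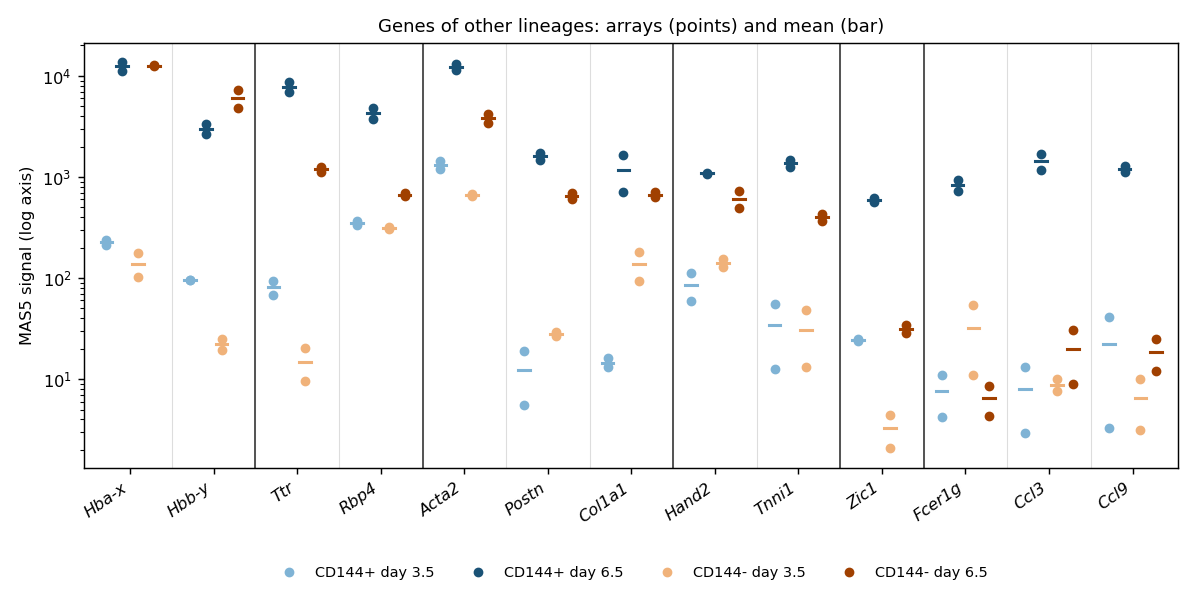
MAS5 signal on a log axis for genes of other lineages, separated by dark lines into globins, endoderm, mesenchyme, heart, neural and myeloid genes, with a point for each of the 2 arrays and a bar at their mean. All 13 were called higher in CD144+ cells at day 6.5 (dark blue) than at day 3.5 (light blue), and Fcer1g, Ccl3 and Ccl9 gave at most 53.7 on the CD144- arrays (orange).

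Of 26 genes of replication and mitosis 4 rose, 5 fell and 17 did not pass, with a median log2 fold of -0.22. Ccnd2, a D-type cyclin, gave 1182 and 1381 at day 3.5 and 5925 and 6959 at day 6.5, a log2 fold of 2.32 ± 0.18 (adjusted p = 1.54e-06), while Ccnd1, another, gave 5129 and 5862 and then 2386 and 2772, and fell by 1.09 ± 0.23 (adjusted p = 0.0177). The cell cycle inhibitors Cdkn1a and Cdkn1c went from 1923 and 2118 to 4735 and 6125 and from 1037 and 906 to 2481 and 2625, with log2 folds of 1.41 ± 0.24 (adjusted p = 0.00394) and 1.39 ± 0.21 (adjusted p = 0.00181). Ccne1, the cyclin of S phase entry, fell by 1.03, and the replication helicase genes Mcm2, Mcm5 and Mcm7 fell by 0.74, 0.76 and 0.73. Mitotic genes did not pass, with Cdk1 at 8263 and 7188 and then 7662 and 8434 (log2 fold 0.06) and Mki67 at 4750 and 4957 and then 3915 and 4242 (log2 fold -0.25). The call of Ccnd2 remained without any array, and its change was larger than in the negative cells by 1.85. Cdkn1c lost its call without day 3.5 replicate 2 (adjusted p = 0.0516), Cdkn1a without day 6.5 replicate 2 and day 3.5 replicate 1 (0.0862 and 0.0538), Ccnd3, a further D-type cyclin with a log2 fold of 0.81, without any (0.0561 to 0.282), and each fall without at least 3 of the 4 arrays (up to 0.412). With the compared arrays alone the falls of Mcm5 and Mcm7 were lost (0.0632 and 0.0728). With arrays centred on the median the list held 3 rises and 2 falls.

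Of 20 genes of glycolysis and the hypoxia response 2 rose. Adm, the vascular peptide adrenomedullin, gave 151 and 139 at day 3.5 and 1151 and 1032 at day 6.5, a log2 fold of 2.86 ± 0.53 (adjusted p = 0.0085). P4ha1, a collagen prolyl hydroxylase, gave 656 and 545 and then 1576 and 1406, a log2 fold of 1.31 ± 0.21 (adjusted p = 0.00228). The glycolytic enzymes did not pass, as Ldha gave 32042 and 36542 and then 31727 and 30501 (log2 fold -0.14, adjusted p = 0.801). Adm lost its call without any array (adjusted p from 0.0627 to 0.119), and P4ha1 without day 6.5 replicate 1 and day 3.5 replicate 2 (0.054 and 0.0616).

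Imprinted genes that govern growth rose in 4 of 13 cases. Dlk1, a Notch-like ligand, gave 528 and 240 at day 3.5 and 7229 and 4618 at day 6.5, a log2 fold of 4.0 ± 0.33 (adjusted p = 4.37e-06), and its change exceeded that of the negative cells by 2.05. Plagl1, a zinc finger factor, gave 2207 and 1953 and then 8971 and 8845, a log2 fold of 2.10 ± 0.44 (adjusted p = 0.0194). Igf2r, the receptor that clears Igf2, and Cdkn1c were the others. Igf2 itself gave 29085 and 36145 and then 41103 and 45497 (log2 fold 0.42, adjusted p = 0.511), while it rose by 2.39 in the negative cells, and the difference, -1.98, passed. Dlk1 kept its call without any array, and Plagl1 and Igf2r lost theirs without any (adjusted p from 0.0794 to 0.365).

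Among 11 genes of antigen processing 2 fell, the immunoproteasome subunits Psmb10 and Psmb8. Psmb10 gave 2001 and 2251 at day 3.5 and 824 and 997 at day 6.5, and fell by 1.22 ± 0.17 (adjusted p = 0.000736), a call that remained without any array. Psmb8 fell by 1.67, a call lost without any (adjusted p from 0.0534 to 0.179). The 2 probe sets of Psmb8 ranged from -1.67 to -0.04, with 1 called. Of 18 immediate early and stress genes Ier3 and Ddit3 rose, by 1.17 and 1.35, and Hsph1, a heat shock protein, fell by 0.88. The other probe set of Ddit3 gave -0.21 and was not called. Fos gave 8389 and 7316 and then 11413 and 10623 (log2 fold 0.49, adjusted p = 0.789). Ier3 and Ddit3 lost their calls without any array (adjusted p from 0.091 to 0.298) and Hsph1 without day 6.5 replicate 1 or day 3.5 replicate 2 (0.117 and 0.105). None of 24 Hox genes passed, with a median log2 fold of 0.20.

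The probe sets with the largest changes were those of genes already described and of a few others. Upwards these were Ccl3, Postn, Ttr, Lhx2, Tdo2, Fcer1g, Ccl9, Hba-x, Col1a1 and Tnni1. Lhx2, a LIM homeobox factor, gave 3.61 and 2.59 at day 3.5 and 633 and 564 at day 6.5, a log2 fold of 6.05 ± 0.92 (adjusted p = 0.00174). Tdo2, the liver enzyme that breaks down tryptophan, gave 1.30 and 36.5 and then 1173 and 1143, a log2 fold of 6.04 ± 1.20 (adjusted p = 0.0134). Both lay near the floor at day 3.5, and with an offset of 32 their log2 folds were 4.17 and 4.64. Lhx2 kept its call without any array, and Tdo2 only without day 3.5 replicate 2 (adjusted p up to 0.155).

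Downwards they were Calcr, Fgf5, Mixl1, Gm9564, Rab19, Lhx1, Dnmt3b, Evpl, Foxd3 and Pim2. Calcr, the calcitonin receptor, gave 325 and 346 at day 3.5 and 3.37 and 3.13 at day 6.5, and fell by 5.20 ± 0.44 (adjusted p = 4.45e-06), or by 3.38 with an offset of 32. In the negative cells its 4 signals lay between 185 and 315, and the difference was -5.82 (adjusted p = 5.77e-05). Pim2, a survival kinase, gave 9056 and 9804 and then 1207 and 1193, and fell by 2.97 ± 0.32 (adjusted p = 7.32e-05). Calcr and Pim2 kept their calls without any array. Rab19, a small GTPase, and Evpl, a protein of epithelial desmosomes, fell from 156 and 247 to 7.18 and 12.0 and from 130 and 185 to 13.2 and 7.23. Rab19 lost its call without day 6.5 replicate 1 or day 3.5 replicate 2 (adjusted p of 0.0587 and 0.0931), Gm9564 without day 6.5 replicate 2 or day 3.5 replicate 2 (0.09 and 0.109), and Evpl without any array (up to 0.323).

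In the negative cells 793 probe sets rose (1.76%) and 354 fell (0.786%) between the same days, or 2.81% and 1.24% of genes. Of the 441 that rose in the positive cells 137 rose in the negative ones, 31.1% of the first list and 17.3% of the second, and 12 fell there. Of the 383 that fell 39 fell in both, 10.2% and 11.0% of the lists, and 9 rose in the negative cells. The difference between the sorts itself passed for 87 of the 441 and 107 of the 383. Over all probe sets it passed for 143 upwards (0.318%) and 173 downwards (0.384%).

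Among genes not yet described, 3 had a large positive difference. Gas1, a growth arrest protein that binds Hedgehog, gave 468 and 382 at day 3.5 and 1488 and 1607 at day 6.5 in the positive cells, a log2 fold of 1.86 ± 0.28 (adjusted p = 0.0015), and fell by 1.25 in the negative cells. Pde2a, a phosphodiesterase of cyclic nucleotides, gave 301 and 344 and then 1343 and 1188, a log2 fold of 1.95 ± 0.42 (adjusted p = 0.0208), and fell by 1.13 in the negative cells. Sgsm3 gave 14.8 and 17.4 and then 230 and 194, a log2 fold of 3.29 ± 0.76 (adjusted p = 0.0341). On these probe sets the sorts thus moved in opposite directions for Gas1 and Pde2a. The 3 probe sets of Gas1 had log2 folds from -0.78 to 1.86 in the positive cells, with 1 called. Platr10, a non-coding RNA of stem cells, gave 494 and 534 and then 54.1 and 141, and fell by 2.46 ± 0.41 (adjusted p = 0.00361), with a log2 fold of 0.45 in the negative cells. Gas1 kept its call without any array, Platr10 lost it without day 6.5 replicate 1 and day 3.5 replicate 2 (0.0868 and 0.0669), and Pde2a and Sgsm3 lost it without any (adjusted p from 0.132 to 0.25).

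**Figure D5:**
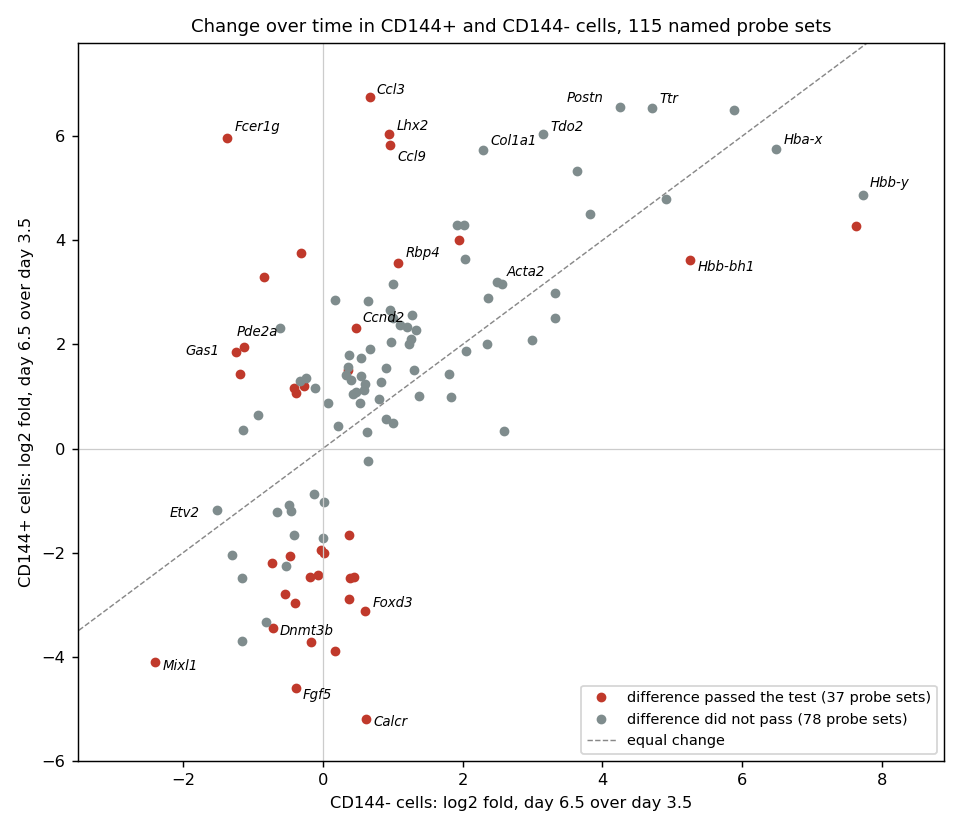
Log2 fold of day 6.5 over day 3.5 in CD144- cells (horizontal) and CD144+ cells (vertical) for the 115 probe sets named by rule. The rules were on antigens, endothelial genes that the study tabulated, size of change, list membership and size of the difference between the sorts. Points are red where that difference passed the test (37) and grey where it did not (78). Some probe sets were named because they passed this test, so the share of red points is not a result. The dashed line marks equal change. Ccl3, Ccl9, Lhx2 and Fcer1g lie high and were not called in CD144- cells, Calcr and Fgf5 lie low, and Hba-x, Ttr and Postn rose in both.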

How the data were processed

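The 16 samples were hybridised by the authors to Affymetrix Mouse Genome 430 2.0 arrays, 8 sorted populations with 2 arrays each. The deposited values are MAS5 intensity values on a linear scale, which the authors scaled per array so that the mean between the 2nd and 98th percentile is 500, and the version of MAS5 is not given in the sources used here. Of 45101 probe sets 64 array controls were left out. The log2 of the intensity plus 6.03, the 10th percentile of all values, was fitted with limma 3.58.1 in R 4.3.3 over all 16 arrays, which share 1 estimate of the spread, with a trended prior and separate weights for positive (0.627) and negative (1.59) sorts. Contrasts were day 6.5 minus day 3.5 in positive cells, in negative cells, and their difference, each adjusted by the Benjamini-Hochberg method over 45037 probe sets, and a probe set was called at an adjusted p below 0.05. The number of arrays limits the precision. Gene names are those of the platform annotation (34945 probe sets with 1 symbol, 932 with several, 9160 with none), and a gene is its probe set with the highest mean over all arrays. The test was checked on simulated data. Members, gene lists and named genes were chosen with earlier results of these data known. Named genes are the sorting antigens, endothelial genes that the study tabulated, the 10 called probe sets that changed most in each direction, up to 5 called members of each list, the 8 genes each way with the largest difference between the sorts, and uncalled members given with their values. The 10 and the 8 were taken among called probe sets with 1 symbol and groups apart. Their mean over all arrays had to exceed 85.8, the median of all values. The replicate numbers did not pair the samples, as deviations of like-numbered arrays correlated at 0.06 in positive and -0.04 in negative cells. Alternatives changed the scaling, offset, filter, weights, samples, prior, replicate block and probe set per gene. The arrays of whole embryos were not analysed here.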

Additional observations from a re-analysis of the deposited data

Results flagged for a closer look

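The change between the days differed between CD144 positive and CD144 negative cells by limma's test of that difference for 51 of the 205 probe sets named in the text. Some of these were named because they passed this test, so the share among the named probe sets is not a result. Over all probe sets the test passed for 0.318% upwards and 0.384% downwards. The values are log2 differences, the change in positive cells minus the change in negative cells, with 2 arrays in each of the 4 groups.

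Differences above 0 were measured for genes of blood and immune cells, with Fcer1g at 7.35, Ccl3 at 6.08, Ccl9 at 4.88 and Ccl6 at 4.07. They were also measured for Lhx2 at 5.10, Sgsm3 at 4.13, Gas1 at 3.11 and Pde2a at 3.08. Of genes of mesenchyme, mural cells, mesoderm and heart muscle, Cdh11 gave 2.81, Rgs5 2.05, Pdgfra 1.72 and Myl7 1.57. Ligands followed with Dll1 at 2.62, Dlk1 at 2.05, Jag1 at 1.47 and Tgfb1 at 1.46. The carrier gene Rbp4 gave 2.49, the cyclin gene Ccnd2 1.85, the stress gene Ier3 1.58 and the annexin gene Anxa2 1.15.

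Differences below 0 were measured for genes of stem cells and epiblast, with Fgf5 at -4.21, Foxd3 at -3.72, the probe sets of Pou3f1 at -3.27 and -2.87, Platr10 at -2.91, and those of Dnmt3b at -2.72 and -2.36. Pim2 gave -2.57, Fgf4 -2.43, L1td1 -2.26, Utf1 -2.19, Dppa4 -1.78, Dppa2 -1.77, Mixl1 -1.72, Tdgf1 -1.46 and Lefty2 -1.38. Of the epithelial genes Cdh1 gave -2.01, Rab25 -1.94, Esrp1 -1.60 and Grhl2 -1.50. Calcr gave -5.82, Gm9564 -4.07, Rab19 -3.54, Thy1 -2.26 and Myb -2.04. Hemgn gave -4.71, Igf2 -1.98, Tal1 -1.73 and Col4a1 -1.56, and these 4 were called higher in the negative cells and not called in the positive ones. The globin genes Hbb-y and Hbb-bh1 gave -3.36, on 1 probe set, and -1.62, and both rose in both sorts.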

How the results depend on the processing

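The main counts were 824 probe sets called, 715 beyond the 2-fold bound and 316 whose change differed between the sorts. The called count was 533 with median scaling, 2630 without weights, 1458 with the compared arrays alone and 207 with a robust prior without trend. The bound count was 387 with an offset of 32, 417 with the filter on dim probe sets, which tested 22598, and 1129 without weights. The difference count was 155 with median scaling, 475 with the filter and 28 with the robust prior. The share of called probe sets that were higher was 53.5%, 39.2% with median scaling, 64.7% with the compared arrays alone and 68.6% with the robust prior. Leaving out 1 CD144 positive array gave 181 to 360 called, 690 to 904 beyond the bound and 48 to 155 differences, with fewer samples in each fit and the lone array assumed to vary like the other populations.

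Of 122 called probe sets named in the text, 37 were called under every alternative, 83 lost the call without at least 1 array, 9 with the compared arrays alone (Dppa2, Ermap, Evpl, Fabp7, Lhx1, Mcm5, Mcm7, Mesp1 and Vim), 9 with the positive arrays alone, and 0 reversed. With the replicate block 911 were called, 820 of them shared, 742 lay beyond the bound and 331 differed, and 1 call named in the text, that of Ermap, was lost. Only uncalled genes reversed. Median scaling gave Cdk1 -0.06, Dppa3 -0.09, Sox2 -0.07 and Gata2 -0.00, where quantile normalization gave Dppa3 -0.00, and an offset of 1 gave Olig2 -0.09. On the probe set with the largest variance Foxp1 gave 0.67, Hnf4a 1.15, Myl3 1.16 and Notch3 0.18. Without 1 array Itga2b ranged from -0.01 to 0.64, Adgre1 from -0.44 to 0.99, Alb from -0.13 to 2.07, Cd14 from -0.03 to 0.50, Cdk1 from -0.04 to 0.16, Dppa3 from -0.10 to 0.16, Erg from -0.10 to 0.38, Itgam from -0.71 to 2.56 and Olig2 from -0.78 to 1.04. The causes were not tested. The log2 fold of Cdh5 stayed between 0.17 and 0.68, uncalled throughout. Folds of genes near the floor depended on the offset, as Postn gave 5.22 with an offset of 32 and 7.13 with an offset of 1.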
